A study of Mus musculus with 23 samples.

Results

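The genes described here form a group named neurotrophins and their receptors, given as Bdnf, Ntf3, Ntrk2, Ntrk3, Ngfr and Vgf. Vgf is in the group though it encodes neither a neurotrophin nor a receptor of one. The genes were chosen by the gene symbol that the platform annotation gives to a probe set. Of the 6 genes 3 carried a probe set under that rule, Bdnf, Ntrk2 and Ntrk3, with 1 probe set each among 12422 non-control probe sets. Ntf3, Ngfr and Vgf were not analysed here. Gene expression had been measured in the whole hippocampus of 23 male mice of the strain C57BL/6JNIA, with 1 array per mouse. The groups were 14 mice aged 15 months and 9 mice aged 2 months. Mice of both ages had learned the position of a platform in a Morris water maze, which tests memory for places, before the tissue was taken. The ages were compared to find hippocampal transcripts that differ between middle-aged and young mice.

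Neurotrophins are secreted growth factors that support the survival, branching and synapses of neurons. They are made as precursors and are cut by convertases and plasmin. In the mature form they bind Trk receptor tyrosine kinases, and neurotrophins also bind the receptor p75, the product of Ngfr. Bdnf, brain-derived neurotrophic factor, is the ligand of TrkB, the product of Ntrk2, and in the hippocampus it is made by excitatory neurons, depends on neuronal activity and takes part in long-term potentiation. Ntrk3 encodes TrkC, the receptor of neurotrophin-3. Both Ntrk2 and Ntrk3 also give rise to truncated receptors that lack the kinase, and the truncated form of TrkB is abundant in astrocytes.

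Bdnf is transcribed from several promoters, and its induction by neuronal activity runs partly through the factor CREB, whose binding element contains the letters TGACG or, read on the opposite strand, CGTCA. RefSeq lists 7 starts of Bdnf on the assembly GRCm38.p6, and 1 of them holds these letters in the 250 bases before it, 35 bases upstream, counted to the first base of the match. Of all 32851 starts listed there, 17.8% hold the letters on either strand in 250 bases. Only these exact letters were searched for, so a start without a match may still hold a variant of them. The 2 sequences below are those before this start and before the first start of the gene, which holds no match, both on the plus strand, with the match in capitals. They are shown because the array gives a single Bdnf value for a gene with several starts.
Bdnf, chr2:109692186-109692435: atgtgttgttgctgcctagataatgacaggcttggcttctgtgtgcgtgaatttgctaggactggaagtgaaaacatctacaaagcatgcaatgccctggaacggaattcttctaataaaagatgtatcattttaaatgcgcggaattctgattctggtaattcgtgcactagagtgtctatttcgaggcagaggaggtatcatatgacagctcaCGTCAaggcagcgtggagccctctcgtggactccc
Bdnf, chr2:109674450-109674699: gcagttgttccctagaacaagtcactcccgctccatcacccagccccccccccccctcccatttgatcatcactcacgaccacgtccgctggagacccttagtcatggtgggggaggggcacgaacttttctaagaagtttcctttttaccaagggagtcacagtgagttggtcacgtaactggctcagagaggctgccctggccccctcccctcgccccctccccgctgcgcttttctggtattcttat
The start of Ntrk2 in the same table had no such letters in its 250 bases. Which transcripts of Bdnf, Ntrk2 and Ntrk3 the probe sets detect, full-length and truncated receptor forms included, was not checked, as probe sequences were not used here.

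The values were signals of the array software MAS5 on a linear scale, scaled alike on all arrays, and precision is limited by how many arrays there were. A probe set was tested if its mean over all arrays lay above the 40th percentile, which is at a signal of 91.7, and 7453 did. The least typical array was that of 15-month replicate 13, whose correlations with the others had a median of 0.947. Of 9 hippocampal neuron markers with a probe set 8 passed the filter, among them Neurod2, Neurod6 and Cpne6. Their mean log2 level lay between 10.65 and 10.92 in 15-month mice and between 10.64 and 10.89 in 2-month mice (exact two-sided permutation p = 0.866). The mean of 5 choroid plexus markers varied much more, from 7.16 to 10.34 in 15-month mice and from 6.93 to 10.19 in 2-month mice. Of 21 such measures and list means, the mean of 16 glucocorticoid-responsive genes alone passed after adjustment, at 10.24 in 15-month mice and 9.90 in 2-month mice (exact permutation p = 4.2e-04, adjusted 0.00887). Its part in the age differences of the genes was not tested. In whole tissue, fewer cells of a type and less RNA per cell cannot be told apart.

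For Bdnf, the ligand of the group, the mean signals of 15-month and 2-month hippocampus lay close together and the test found no difference. The signal of its probe set (Entrez gene 12064) had a lowest value of 1058.3, a median of 1690.5 and a highest value of 1837.3 in the 14 mice of 15 months, against 1218.0, 1596.2 and 1817.0 in the 9 mice of 2 months. The groups overlapped almost entirely, with 11 of the 14 older mice inside the range of the younger ones, 2 above it and 1 below it. The mean signal was 1571 ± 254 (SD, n = 14) at 15 months and 1565 ± 187 (SD, n = 9) at 2 months. On the scale of log2(signal + 16) the difference, 15-month minus 2-month, was -0.0043 ± 0.09 (SE), with a 95% interval of -0.19 to 0.18. This corresponds to 0.997-fold, with an interval of 0.877-fold to 1.13-fold (limma, adjusted p = 0.990), and 8 of the 14 older mice lay above the 2-month mean. Of the 7453 probe sets tested, 2.48% had a smaller absolute change than Bdnf.

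Among the older mice the Bdnf signals ran from 1058.3 to 1837.3. Replicates 7, 8, 10, 13 and 14 lay between 1058.3 and 1432.2, and the other 9 mice between 1554.7 and 1837.3. This cut was picked from the values and is not at their widest gap, which lies between 1058.3 and 1260.1. The 2-month mice had a gap wider than that of this cut, between 1218.0 and 1357.4. The lowest older mouse was 15-month replicate 10, and leaving it out gave a log2 difference of 0.038 (limma, adjusted p = 0.865). The coefficient of variation was 16.2% at 15 months and 12.0% at 2 months, values given without a test.

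**Figure D1:**
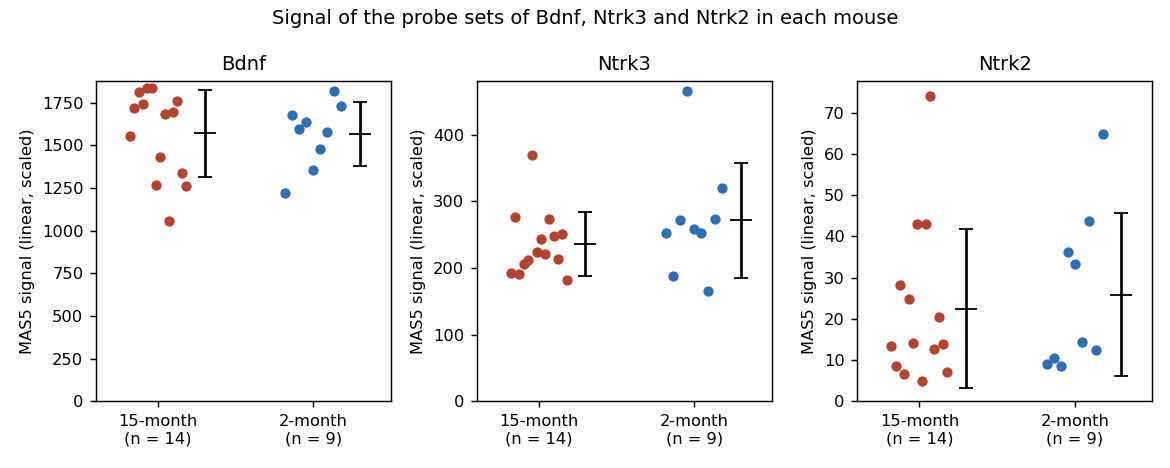
MAS5 signal of the probe sets of Bdnf, Ntrk3 and Ntrk2 on a linear axis from 0, with a point for each mouse, 15-month mice on the left (n = 14) and 2-month mice on the right (n = 9), and mean ± SD as bars. Bdnf averaged 1571 and 1565 in the 2 groups, Ntrk3 was highest in 2-month replicate 4 at 465.6, and Ntrk2 stayed below 91.7 on every array.

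Ntrk3, which encodes the receptor TrkC, had a lower mean at 15 months that did not pass the test. The signal of its probe set (Entrez gene 18213) had a lowest value of 182.1, a median of 221.9 and a highest value of 370.0 in 15-month mice, against 165.2, 258.8 and 465.6 in 2-month mice. All 14 of the older mice were within the range of the younger ones, and 3 of the 14 lay above the 2-month mean. The mean signal was 236 ± 48.5 (SD, n = 14) at 15 months and 272 ± 86.1 (SD, n = 9) at 2 months. The log2 difference was -0.16 ± 0.13 (SE), or 0.893-fold with a 95% interval of 0.742-fold to 1.08-fold (limma, adjusted p = 0.637). The highest mouse decided much of its size: without 2-month replicate 4, at 465.6, the log2 difference was -0.06 (limma, adjusted p = 0.870).

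Ntrk2, which encodes TrkB, was measured by a dim probe set (Entrez gene 18212) whose values do not allow a statement on the level of the transcript. All 23 arrays were below the signal of 91.7, and 17 of 23 were below the 25th percentile of their own array. The signal had a lowest value of 4.9, a median of 14.1 and a highest value of 74.1 in 15-month mice, and a lowest value of 8.5, a median of 14.4 and a highest value of 64.9 in 2-month mice. The ranges overlapped, with 10 of the 14 older mice inside that of the younger ones. The probe set failed the filter and was not in the main test. When no filter was applied, its log2 difference was -0.12 ± 0.25 (SE), with a 95% interval of -0.64 to 0.39 (limma, adjusted p = 0.920). That interval holds differences of either sign.

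Of the 2 member probe sets tested 0 were called with limma, 0 had an unadjusted p under 0.05 and 0 were called by the exact Mann-Whitney test. Over all tested probe sets 0.376% were called with limma, 28 of 7453, with 0.335% called higher at 15 months and 0.0403% called lower, so that a count of 0 among 2 is not a result about these genes.

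Genes of and around the neurotrophin pathway were described with 6 lists of 146 genes, which also hold other trophic factors and genes not specific to neurotrophins. Of the 146 genes 83 were bright enough to be tested, each by its brightest probe set. None was called in either direction, by limma or by the exact Mann-Whitney test. The changes were evenly split, with 42 genes above 0 and 41 below, and a median log2 change of 0.01, against -0.02 over all tested probe sets. At an unadjusted p under 0.05 there were 14 of the 83, or 16.9%, against 12.4% of all tested probe sets.

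Among other trophic ligands and receptors 5 of 15 genes were tested and 0 were called, with 1 change above 0, 4 below and a median of -0.17. The 3 of lowest p were Gfra1, Gdnf and Ptn. Gfra1, the co-receptor of glial cell line-derived neurotrophic factor, was at 196 ± 35.5 in 15-month mice and 223 ± 37.7 in 2-month mice (SD; limma adjusted p = 0.492). Gdnf, that factor itself, was at 112 ± 21.8 in 15-month mice and 132 ± 48.5 in 2-month mice (adjusted p = 0.643), and its log2 difference of -0.18 was -0.068 without 2-month replicate 6, the highest mouse. Ptn, the growth factor pleiotrophin, was at 153 ± 37.5 in 15-month mice and 138 ± 24.9 in 2-month mice (adjusted p = 0.732).

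Of 18 genes that process neurotrophin precursors or control the proteases that do so, 10 were tested, with 5 changes above 0, 5 below, a median of 0.00 and 0 called. Furin, a convertase that cuts neurotrophin precursors in the secretory pathway, was at 748 ± 159 in 15-month mice and 681 ± 59.5 in 2-month mice (adjusted p = 0.688). Plat, the tissue plasminogen activator that yields the plasmin which cuts proBDNF outside the cell, was at 1152 ± 339 in 15-month mice and 919 ± 101 in 2-month mice, a log2 difference of 0.28 ± 0.13 (SE; limma adjusted p = 0.372). The inhibitors of metalloproteinases pointed in both directions. Timp3 had a log2 difference of 0.44 ± 0.16 (adjusted p = 0.268), with 12 of 14 older mice above the 2-month mean, and Timp2 one of -0.33 ± 0.13 (adjusted p = 0.274), with 2 of 14 above it.

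Bdnf is stored in dense-core vesicles, as are the granins, and the list of such genes had 10 of 12 tested, with 5 changes above 0, 5 below, a median of -0.01 and 0 called. Scg5, the chaperone of a prohormone convertase, was at 996 ± 95.1 in 15-month mice and 899 ± 68.8 in 2-month mice (adjusted p = 0.326). Cadps, a priming factor of dense-core vesicle release, had a log2 difference of 0.11 (adjusted p = 0.326) and a second probe set of it had 0.05. Chga, chromogranin A, had a log2 difference of -0.13 (adjusted p = 0.446).

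Downstream of the Trk receptors 22 of 47 signalling genes were tested, with 11 changes above 0, 11 below, a median of 0.01 and 0 called. The 3 of lowest p were Akt2, a kinase of the survival pathway, with a log2 difference of -0.16 (adjusted p = 0.346), Sos1, an exchange factor of Ras, with 0.27 (adjusted p = 0.354), and Map2k5, the activator of the kinase ERK5, with -0.14 (adjusted p = 0.372). Of 24 genes of p75 signalling 15 were tested, with 9 changes above 0, 6 below, a median of 0.07 and 0 called. The 3 of lowest p there were Sqstm1, a scaffold protein that binds TRAF6, with a log2 difference of 0.10 (adjusted p = 0.354), and the adaptors Traf2 with -0.22 (adjusted p = 0.378) and Traf4 with -0.20 (adjusted p = 0.408). The sign of the p75 median turned with the choice of probe sets, to -0.06 over all 25 tested probe sets of the list. These genes serve many receptors besides those of neurotrophins.

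The immediate early list, of genes that neurons switch on within minutes of activity or Trk signalling and of their regulators, had 21 of 30 tested, with 11 changes above 0, 10 below, a median of 0.01 (-0.04 over all its 24 tested probe sets) and 0 called. The lowest p of all 6 lists was that of Dusp6, a phosphatase that inactivates ERK. Its signal was 1083 ± 161 (SD, n = 14) in 15-month mice and 1332 ± 85.6 (SD, n = 9) in 2-month mice, and 0 of 14 older mice were above the 2-month mean. The log2 difference was -0.31 ± 0.08 (SE; limma adjusted p = 0.0826). It passed without 15-month replicate 3 (adjusted p = 0.0416), without 15-month replicate 12 (0.0457) and with the 25th percentile of each array as a covariate (0.0198), over a range of 0.0198 to 0.175 in 37 settings. Nr4a2, a nuclear receptor, had a log2 difference of -0.33 ± 0.11 (adjusted p = 0.223), and Klf4, a transcription factor of the Krüppel-like family, had 0.60 ± 0.21 (adjusted p = 0.228).

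**Figure D2:**
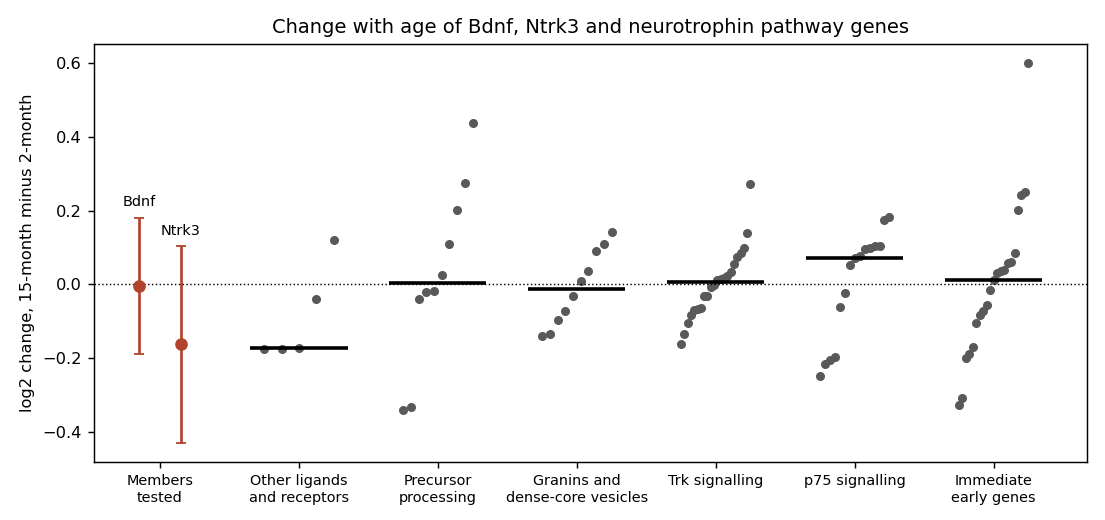
Log2 change, 15-month minus 2-month, of Bdnf and Ntrk3 with 95% limma intervals and of each tested gene of the 6 pathway lists (points, with the median of the list as a bar). The Bdnf interval spans -0.19 to 0.18, and no gene of the lists passed the test.

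Across mice of the same age, no pair of members had a correlation that passed the test. Each mouse was taken as its deviation from the mean of its age on the log2 scale, and 3 pairs were compared with two-sided permutation tests within age. Bdnf and Ntrk3 had a Pearson r of 0.06 (permutation p = 0.763) and a Spearman rho of 0.02 (permutation p = 0.914) over 23 mice. Bdnf and Ntrk2 had an r of -0.17 (permutation p = 0.463) and a rho of 0.03 (permutation p = 0.876), and Ntrk2 and Ntrk3 an r of 0.14 (permutation p = 0.558) and a rho of 0.13 (permutation p = 0.550). After adjustment over the 3 pairs each r had a permutation p of 0.763. Without the 2 mice farthest from the median of the first gene the r was 0.19 for Bdnf and Ntrk3, 0.04 for Bdnf and Ntrk2 and -0.03 for Ntrk2 and Ntrk3.

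Each member was also set against the mean of 10 gene lists, 30 relations in all, of which 1 passed after adjustment, a call that did not hold without some single mice or without 1 gene of its list. Bdnf varied with the mean of 7 oligodendrocyte lineage genes, the makers of myelin, with an r of 0.67 (permutation p = 6.2e-04, adjusted 0.0186) and a rho of 0.67 (permutation p = 9.7e-04, adjusted 0.0291) over 23 mice. Without the 2 mice farthest from the median of the list mean, 15-month replicate 7 and 2-month replicate 9, the r was 0.67 (permutation p = 0.00113). Within the 15-month mice the r was 0.84 (unadjusted permutation p = 1.8e-04, n = 14), and within the 2-month mice it was 0.39 (unadjusted permutation p = 0.295, n = 9), a difference between the ages that was not tested. With the adjustment over the 30 relations repeated each time, the call was lost without 15-month replicate 10 (r = 0.63, adjusted permutation p = 0.0900) and without 2-month replicate 5 (r = 0.65, adjusted permutation p = 0.0510). The list mean itself was 9.97 ± 0.16 (SD) at 15 months and 10.07 ± 0.19 at 2 months (exact permutation p = 0.228). Genes outside the list had a higher r with Bdnf, up to 0.81 for Hnrnph1, than its probe sets, up to 0.69 for Ugt8a. The permutation test asks only if Bdnf and the list mean vary independently. Whether the relation is particular to oligodendrocyte lineage genes was not tested.

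The probe sets behind this relation did not move alike. Among the 7 in the mean, the r with Bdnf was 0.69 for Ugt8a, the enzyme of galactolipid synthesis for myelin, 0.59 for Mobp and 0.50 for Mag, both myelin proteins. It was 0.38 for Pdgfra, the receptor of oligodendrocyte precursors, 0.33 for Mbp, myelin basic protein, 0.22 for Mog, a protein of the outer myelin surface, and -0.01 for the lineage transcription factor Sox10. Ugt8a averaged 86.6 in 15-month mice and 114 in 2-month mice, near the filter signal of 91.7. A second probe set of Mbp had an r of -0.38 and a second of Mag one of -0.39, while 3 further ones of Mobp had 0.52 to 0.66. A second tested probe set of Sox10 had an r of 0.46 and a second tested one of Pdgfra 0.12. Without Ugt8a in the mean the r with Bdnf was 0.54, and the call was lost (permutation p = 0.00563, adjusted 0.169).

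Measures of the arrays were also set against Bdnf, as values of r without a test. Over the 23 mice the r of Bdnf was -0.008 with the median signal of the array, -0.19 with the 25th percentile and -0.31 with the 99th percentile. It was -0.30 with the log2 ratio of the 3' to the 5' control probe set of beta-actin, a measure of RNA integrity, and -0.27 with that of Gapdh. For the beta-actin ratio it was -0.46 within the 15-month mice and 0.14 within the 2-month mice, and for the 99th percentile -0.37 within the 15-month mice and -0.14 within the 2-month mice. With the 25th percentile, the 99th percentile or the beta-actin ratio regressed out, a choice made after the data were seen, the r of Bdnf with the oligodendrocyte lineage mean was 0.66 to 0.71 over both ages. Whether these measures play a part within the 15-month mice alone was not tested.

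**Figure D3:**
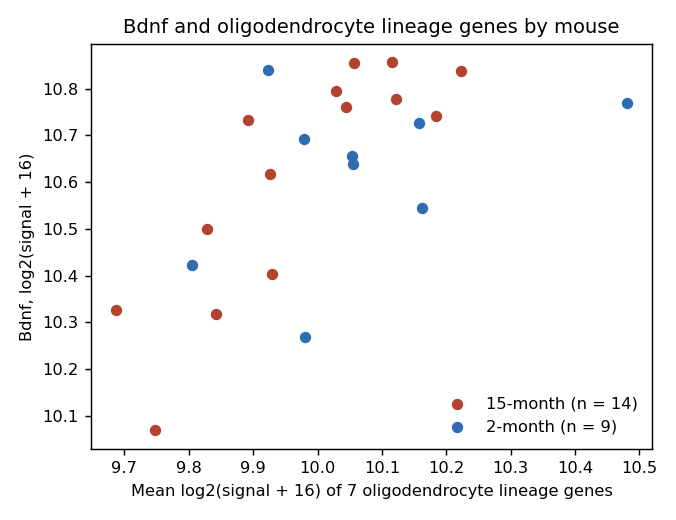
Bdnf on the y axis against the mean of 7 oligodendrocyte lineage genes on the x axis, both as log2(signal + 16), with a point for each of the 14 mice of 15 months (red) and 9 of 2 months (blue). The 4 mice of 15 months with the lowest list means had Bdnf signals of 1058.3 to 1432.2, and the r within that age was 0.84.

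**Figure D4:**
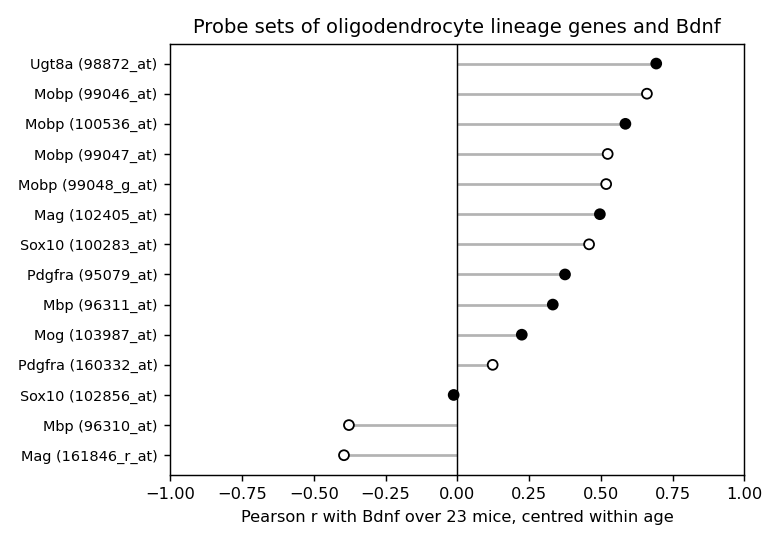
Pearson r with Bdnf over 23 mice, centred within age, of every tested probe set of the oligodendrocyte lineage list; filled points are the probe sets in the mean and open points the other probe sets of the same genes. They run from -0.39 for a second probe set of Mag to 0.69 for Ugt8a.

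The other relations did not pass. The lowest p of a Pearson r among them was that of Bdnf with the mean of 5 marker genes of thalamus, habenula and striatum, with an r of -0.45 (permutation p = 0.0339, adjusted 0.509) and a rho of -0.38 (permutation p = 0.0757). That r was -0.39 within the 15-month mice, -0.60 within the 2-month mice and -0.27 without the 2 mice farthest from the median of the list mean. The lowest p of a rho was that of the dim Ntrk2 probe set with the mean of 12 vascular genes. That rho was 0.46 (permutation p = 0.0284, adjusted 0.418), with an r of 0.35 (permutation p = 0.110, adjusted 0.568). Bdnf had an r of 0.29 with the mean of immediate early genes (permutation p = 0.211, adjusted 0.575) and a rho of 0.28 (permutation p = 0.216), and an r of 0.22 without the 2 mice farthest from the median of the list mean. That relation had an r of 0.70 within the 2-month mice (unadjusted permutation p = 0.0324, n = 9) and a rho of 0.72 (unadjusted permutation p = 0.0376). Within the 15-month mice the r was 0.14 (unadjusted permutation p = 0.643, n = 14) and the rho 0.02. The difference between the ages was not tested. Bdnf had an r of 0.38 with the mean of hippocampal neuron markers (permutation p = 0.0789, adjusted 0.568) and a rho of 0.44 (permutation p = 0.0418, adjusted 0.418). Without the 2 farthest mice the r was 0.55 (unadjusted permutation p = 0.0161). It was 0.53 within the 15-month mice (unadjusted permutation p = 0.0502) and 0.07 within the 2-month mice (unadjusted permutation p = 0.875). For glucocorticoid-responsive genes, which can be induced by stress hormones, the 15-month mice fell into separate ranges of the list mean. These were 9.96 to 10.08 in 7 mice and 10.37 to 10.56 in the other 7, cut at the widest gap in these same values. Over all 23 mice the r of Bdnf with this list mean was -0.34 and did not pass (permutation p = 0.161, adjusted 0.575), with a rho of -0.28 (permutation p = 0.240). The r was -0.44 within the 15-month mice (unadjusted permutation p = 0.115) and 0.34 within the 2-month mice (unadjusted permutation p = 0.352). Without the 2 mice farthest from the median of the list mean it was -0.46 (permutation p = 0.0680). Of the 5 older mice with the lowest Bdnf, replicates 7, 10, 13 and 14 were in the upper range and replicate 8 in the lower. The ranges and these 5 mice were both picked from the values, so this count is given without a test. Within each range, of 7 mice, the sign was positive, also without passing. As the ranges were cut from the same list means and are small, these values cannot decide on the relation over all mice. Bdnf had an r of 0.30 (permutation p = 0.595) and a rho of 0.32 (permutation p = 0.497) in the lower range. In the upper range it had an r of 0.66 (permutation p = 0.110) and a rho of 0.61 (permutation p = 0.164). Septal cholinergic neurons, which express Ngfr, were represented by 1 tested marker of 6, Ache, and no relation to Ngfr was examined.

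The genes whose pattern over the 23 mice was most like that of Bdnf were Hnrnph1, an RNA-binding splicing regulator (r = 0.81, rho = 0.73), Suz12, a subunit of the Polycomb repressive complex PRC2 (r = 0.80, rho = 0.71), and Cdh11, a cadherin (r = 0.78, rho = 0.75). For Ntrk3 they were Dnajc5, the synaptic vesicle chaperone cysteine string protein (r = 0.68, rho = 0.54), a dimmer probe set of Casp9, an initiator caspase (r = 0.66, rho = 0.58), and Gcnt1, a glycosyltransferase of O-linked glycans (r = 0.66, rho = 0.58). These were picked as the highest of 6755 probe sets, so no p is given. The mice share their arrays between the genes, and the brightest probe set of Casp9 was another. For the dim Ntrk2 probe set the highest were Pex19, a peroxisome assembly factor (r = 0.69), Zfp598, a ubiquitin ligase of stalled ribosomes (r = 0.66), and Gpd1, a glycerol phosphate dehydrogenase (r = 0.66), values that rest on signals mostly under the 25th percentile of the array.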

How the data were processed

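Total RNA of whole hippocampus carried a biotin label and was read on Affymetrix arrays of 1 colour, per the labels' protocols. The deposited intensities are MAS5 signals, per the submitters' processing notes, with version and settings not given in the sources used here. Their mean after trimming 2% at each end was 500.3 on every array, so they were used without further normalisation. At most 44 of 12488 values were identical between a pair of arrays. Groups follow the age in the labels, each sample is a biological replicate per the series' design text, and replicate numbers only name mice. No batch was given, and sample numbers in the titles do not overlap between ages, so handling order and age cannot be told apart.

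Gene symbols came from GEO's platform annotation, which gave a single symbol to 10833 of the 12422 probe sets that are no controls, more than 1 to 396 and no symbol to 1193. The test was limma 3.58.1 in R 4.3.3 on log2(signal + 16), with trend and robust variance, two-sided, Benjamini-Hochberg adjusted over 7453 probe sets, threshold 0.05. Fold changes on this scale understate those of dim genes. Array measures and list means were compared by exact permutation over 817190 regroupings, and correlations by 100000 permutations within age (10000 where a mouse was left out or the adjustment over the 30 relations was repeated), in Python 3.11.15 (scipy 1.17.1, numpy 2.4.6, pandas 2.3.3, matplotlib 3.10.9). Promoter sequences are RefSeq's, GRCm38.p6, and 2 of the 3 genes matched. Named genes were all members, the 3 of lowest p of each pathway list with any past the threshold, and the 3 most like each member; genes named outside this rule, such as Furin and list markers, were chosen after their values were seen. Members and lists were chosen with earlier results of these data known.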

Additional observations from a re-analysis of the deposited data

Results flagged for a closer look

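Gdnf had 1 high value among the 2-month mice. Its signal was 244 in 2-month replicate 6, against 90.2 to 161.2 in the other 2-month mice. The gap of this mouse to the next was 0.538 of the range of the group, above the 0.493 that Dixon's test allows for 9 samples. The test was run on 30 probe sets of named genes, and chance alone gives such a value in about 1 of 20 groups. No value of Bdnf, Ntrk2 or Ntrk3 in the 2-month mice was this far from the others, the nearest being Ntrk3 in 2-month replicate 4 at 0.482 of the range.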

How the results depend on the processing

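Of Bdnf and Ntrk3, 0 were called in 36 alternative limma settings and in the exact Mann-Whitney test; Ntrk3 failed the 60th-percentile filter. The 6 pathway lists had 0 genes called also when all their probe sets were used, and Dusp6 passed in 3 of 37 settings. Over all probe sets the median change turned its sign for p75 signalling, immediate early, granin and Trk signalling genes, to -0.061, -0.036, 0.0077 and -0.0019. The Bdnf difference lay so near 0 that its sign turned, to 0.021 with equal array medians, 0.018 with the meninges covariate, 0.025 with the beta-actin ratio as a covariate (added after the data were seen) and 0.017 without the 2 arrays of lowest correlation, and ran from -0.048 to 0.038 when each mouse was left out; the lowest adjusted p over these settings was 0.865. Leaving out each mouse gave -0.24 to -0.06 for Ntrk3 and -0.23 to 0.01 for the untested Ntrk2 probe set. The count of all probe sets called was 61 with the 25th percentile of each array as a covariate, against 28, and 20 to 39 when each mouse was left out; the cause was not tested. The r of Bdnf with the oligodendrocyte lineage mean was 0.54 to 0.74 over 35 alternatives added after the data were seen, and 0.63 to 0.74 when each mouse was left out; its adjusted permutation p ran from 0.0030 to 0.169, and 3 of the 35 lost the call, 0.54 without Ugt8a, 0.63 without 15-month replicate 10 and 0.65 without 2-month replicate 5. The r of the 3 pairs of members kept its sign without 15-month replicate 13 and with the 25th percentile regressed out, but with each mouse left out it ran from -0.27 to 0.14 for Bdnf and Ntrk2 and from -0.055 to 0.18 for Bdnf and Ntrk3. No paired analysis was possible because the replicate numbers pair no mice. Signals mostly below the array's 25th percentile, as for Ntrk2, limit what could be seen.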
